A study of Homo sapiens with 6 samples.

Results

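Of the 832 miRNAs counted in small RNA libraries of extracellular vesicles (EVs), 50 carry no miRBase name, and these predicted miRNAs are described here. They were taken as every entry whose identifier does not start with hsa-, a rule that uses no measured value. Each is known by a chromosome or scaffold prefix and a number, such as 19_15192, and the deposited table gives neither a sequence nor a position for any of them. The 3 libraries of MDA-MB-231 EV came from EVs of wild-type MDA-MB-231 cells, an established human triple-negative breast cancer line. The 3 libraries of MDA-MB-231/ACO1 KD EV came from EVs of the same line after knockdown of ACO1, an iron-regulated enzyme that also binds RNA. Both groups were grown in DMEM with serum, and EVs were pelleted by ultracentrifugation from medium described as EV-free. How ACO1 was knocked down, and whether the 3 libraries of a group came from separate cultures, is not given in the sources used here, so p-values measure the spread between these libraries only. Small RNA libraries do not measure ACO1 mRNA, and the knockdown itself was not examined.

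A miRNA is cut from a hairpin in a longer transcript, in most cases first by Drosha in the nucleus and then by Dicer in the cytoplasm, and the mature strand guides Argonaute proteins to target mRNAs by its seed. Prediction tools look for genomic places where reads stack on one arm of a possible hairpin with ends that resemble Dicer cuts. Such a prediction is a candidate, because fragments of other structured RNAs can fold and stack in a similar way. EVs carry miRNAs together with fragments of other small RNAs.

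Library totals ranged from 224948 to 230562 counts in MDA-MB-231 EV, whereas MDA-MB-231/ACO1 KD EV replicate 2 had 67873 counts against 175924 and 157322 in replicates 1 and 3. A single count was worth 4.34 to 4.45 TPM (the count scaled by the library total, with no length term) in MDA-MB-231 EV and 5.68, 14.7 and 6.36 TPM in MDA-MB-231/ACO1 KD EV replicates 1, 2 and 3. All 6 miRNAs fixed as markers of mesenchymal-like MDA-MB-231 cells were present. They summed to 407965 to 428887 TPM in MDA-MB-231 EV and 248950 to 313001 TPM in MDA-MB-231/ACO1 KD EV. In the fit used to compare the groups, 5 of 6 were past an adjusted p of 0.05 downwards. The marker of highest level, hsa-miR-21-5p, had a log2 fold change of -1.44 in that fit, and the next highest, hsa-miR-125b-5p, one of 0.0988. The sum follows its largest member and does not show that the 6 fell alike. The 6 epithelial markers summed to 858 to 985 TPM and 619 to 992 TPM, with 1 lower and none higher. The 8 miRNAs of blood cells and serum, also all present, summed to 18213 to 20298 TPM in MDA-MB-231 EV and 26900 to 31780 TPM in MDA-MB-231/ACO1 KD EV, with 2 lower and 2 higher. The part of these shifts in the results on predicted miRNAs was not tested.

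Predicted miRNAs made up 0.650%, 0.542% and 0.590% of all counts in MDA-MB-231 EV replicates 1, 2 and 3 (95% Wilson intervals 0.618% to 0.684%, 0.513% to 0.573% and 0.559% to 0.623%). In MDA-MB-231/ACO1 KD EV replicates 1, 2 and 3 they made up 0.995%, 2.10% and 1.09% (0.95% to 1.04%, 2.0% to 2.21% and 1.04% to 1.15%). The intervals cover counting error only. Every knockdown library was thus above every control library, with a mean of 1.40% ± 0.613 (SD, n = 3) against 0.594% ± 0.0544 (SD, n = 3). Replicate 2, the shallowest library, sets much of that mean, and without it the knockdown libraries averaged 1.04%. As a sum over a list, the share was given no test. The late-numbered miRBase miRNAs, the 195 whose number is 3000 or more, made up 0.138% to 0.160% in MDA-MB-231 EV and 0.126%, 0.292% and 0.160% in MDA-MB-231/ACO1 KD EV, so those groups overlapped.

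Much of the higher share was a single predicted miRNA. 19_15192 alone took 0.274%, 0.228% and 0.280% of all counts in MDA-MB-231 EV and 0.693%, 0.993% and 0.789% in MDA-MB-231/ACO1 KD EV. With 19_15192 set aside, the other 49 predicted miRNAs held 0.376%, 0.314% and 0.310% of counts in MDA-MB-231 EV and 0.302%, 1.11% and 0.304% in MDA-MB-231/ACO1 KD EV. On this measure knockdown replicates 1 and 3 were below all control libraries, and only replicate 2 was above them. When 20_19352 was also left out, knockdown replicate 2 stood at 0.501%. The near balance in replicates 1 and 3 joins opposite movements, since 17_13416 was much lower there and 8_32440 much higher than in MDA-MB-231 EV.

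**Figure D1:**
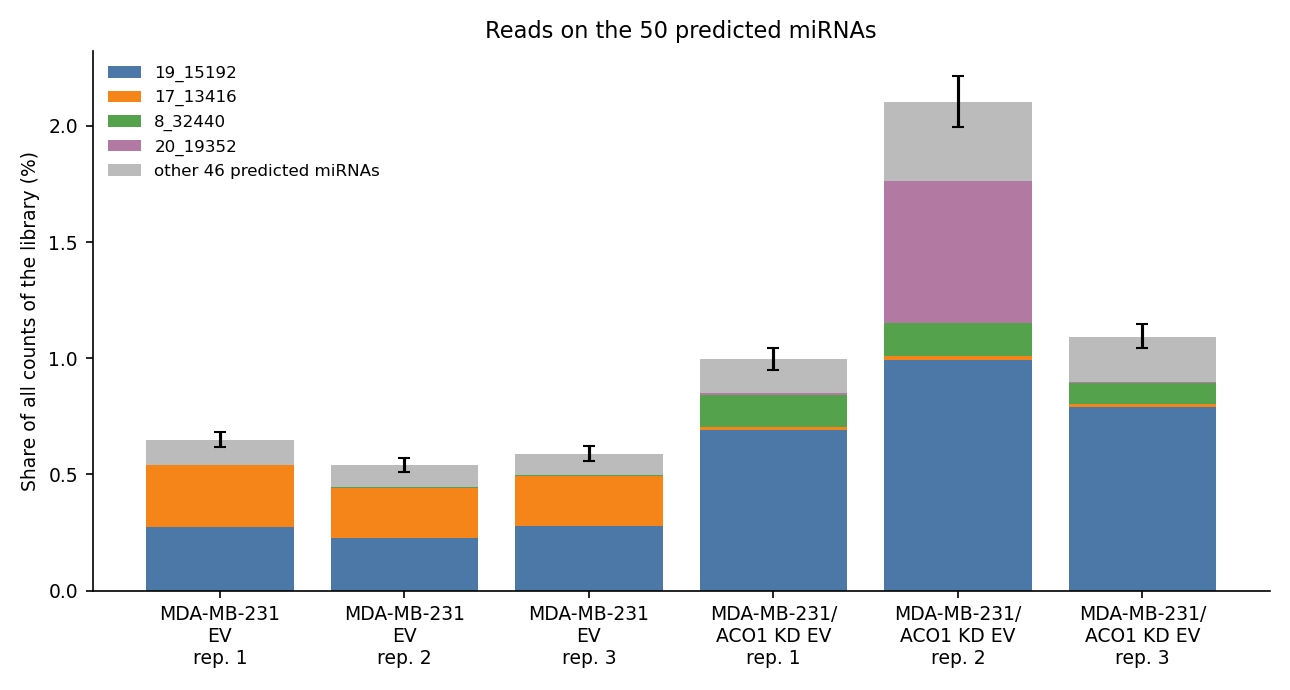
Share of all counts of each library (y axis, percent) on the 50 predicted miRNAs, for 3 libraries of MDA-MB-231 EV and 3 of MDA-MB-231/ACO1 KD EV (x axis). Colours show the 4 predicted miRNAs with most counts and the other 46, and error bars are 95% Wilson intervals of the sum. The bars end at 0.542% to 0.650% in MDA-MB-231 EV and at 0.995% to 2.10% in MDA-MB-231/ACO1 KD EV, where 17_13416 (orange) is nearly gone, 19_15192 (blue) is larger and 20_19352 (purple) is large in replicate 2 only.

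The predicted reads were concentrated in few members. The 3 largest of each library held 86.4%, 87.8% and 88.5% of predicted counts in MDA-MB-231 EV and 85.1%, 83.0% and 82.7% in MDA-MB-231/ACO1 KD EV. The 3 largest held 33.1% to 45.6% among the 782 miRBase-named miRNAs and 34.5% to 63.6% among the 195 late-numbered ones. Both of these lists are longer than that of the 50 predicted miRNAs, which by itself lowers such a share. The 3 largest predicted miRNAs were 19_15192, 17_13416 and 1_1679 in every MDA-MB-231 EV library. In MDA-MB-231/ACO1 KD EV replicates 1 and 3 they were 19_15192, 8_32440 and 5_26715, and in replicate 2 they were 19_15192, 20_19352 and 8_32440. 19_15192 was first in all 6 libraries, with 42.1% to 47.5% of predicted counts in MDA-MB-231 EV and 47.2% to 72.2% in MDA-MB-231/ACO1 KD EV. The share of the 3 largest was thus close in both groups while the members behind it changed, whereas the share of the first was higher in knockdown replicates 1 and 3, at 69.7% and 72.2%, than in the other 4 libraries.

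Beyond these few, most predicted miRNAs were rare. The median total over the 6 libraries was 14 counts, 18 of the 50 had fewer than 10 counts, and 11 had at least 100. For the miRBase-named miRNAs the median total was 8 counts. Counts above 0 in all 6 libraries were found for 18 predicted miRNAs (36%) and for 313 named ones (40.0%). In single libraries, 38, 36 and 31 predicted miRNAs were detected in MDA-MB-231 EV and 34, 26 and 31 in MDA-MB-231/ACO1 KD EV. Brought to the 67873 counts of the shallowest library by calculation, the expected numbers were 24.8, 24.5 and 21.7 in MDA-MB-231 EV and 28.6, 26 and 27.0 in MDA-MB-231/ACO1 KD EV, so the order of the groups turned once library totals were equal. The named miRNAs moved in a like manner, from 527, 508 and 510 against 487, 395 and 507 detected to an expected 396, 382 and 379 against 390, 395 and 415. Of the 50 predicted miRNAs, 11 had reads in MDA-MB-231 EV only and 2 in MDA-MB-231/ACO1 KD EV only. Among the 782 named miRNAs these numbers were 158 and 103. The 2 are 8_33327 and 8_33328, which have the same counts, all in knockdown replicate 2. The 11 had 1 to 4 counts each, and those with 1 count are not known to be separate reads. A count of 0 still allows up to 3 counts, and the absence of the 11 from the shallower knockdown libraries was not detectable as a difference.

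Several identifiers shared 1 count profile. Among the 32 predicted miRNAs with at least 10 counts, 11 fell into 4 sets whose members had the same count in every one of the 6 libraries, compared with 5 of 374 miRBase-named miRNAs in 2 sets. The largest set holds 1_1033, 1_1035, 1_1037, 1_1039 and 21_19898, each with counts of 19, 12 and 11 in MDA-MB-231 EV and 20, 13 and 32 in MDA-MB-231/ACO1 KD EV. The others are the neighbouring numbers 17_12749 and 17_12750 (4, 1 and 1 against 2, 2 and 5), the pair 13_9122 and 12_8090 on different chromosomes (3, 0 and 1 against 4, 0 and 5), and the neighbours 8_33327 and 8_33328 (0, 0 and 0 against 0, 21 and 0). Members of a set cannot be told apart in these data and are not independent, so 43 identifiers are left when each of the 4 sets is counted once. No sets were formed among identifiers with fewer than 10 counts, so any copies among these are counted singly. Counting each set once, predicted miRNAs made up 0.613%, 0.520% and 0.570% of counts in MDA-MB-231 EV and 0.946%, 1.99% and 1.01% in MDA-MB-231/ACO1 KD EV.

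Named miRNAs show how the table treats loci with 1 mature sequence, and their sequences are printed for that reason. The RefSeq entries (GRCh38.p14) for hsa-miR-365a-3p, on chromosome 16 from 14309340 to 14309361, and hsa-miR-365b-3p, on chromosome 17 from 31575478 to 31575499, both on the plus strand, are the same 22 nt. So are those for hsa-miR-199a-3p, with loci on chromosomes 1 and 19, and hsa-miR-199b-3p on chromosome 9. Capitals mark the seed, bases 2 to 8 from the 5′ end.
hsa-miR-365a-3p: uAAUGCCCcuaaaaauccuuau
hsa-miR-365b-3p: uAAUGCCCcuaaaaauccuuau
hsa-miR-199a-3p: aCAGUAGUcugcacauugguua
hsa-miR-199b-3p: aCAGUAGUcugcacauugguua
hsa-miR-365a-3p and hsa-miR-365b-3p were both listed with 51, 23 and 40 counts in MDA-MB-231 EV and 33, 3 and 22 in MDA-MB-231/ACO1 KD EV. hsa-miR-199a-3p and hsa-miR-199b-3p had the same counts in 4 libraries and differed by a single read in MDA-MB-231/ACO1 KD EV replicates 1 and 2 (342 and 341, 160 and 159). Names that share a mature sequence thus had the same or nearly the same count. Whether the 4 predicted sets have one mature sequence each was not tested, as no sequence is given for them.

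The prefixes name 20 chromosomes and 2 scaffolds outside the assembled chromosomes. The number that follows a chromosome prefix goes up to 37148. With these prefixes in text order (1, 11, 12 and so on to 9 and X), the numbers of each lie above those before it. The number thus reads as a running number from prefix to prefix and not as a coordinate. Its order within a chromosome was not tested, as no position is given. Chromosome 1 has 6 predicted miRNAs, chromosomes 17, 19 and 21 have 4 each, and chromosomes 6, 8 and 12 have 3 each. No predicted miRNA carries the prefix 7, 10, 14 or Y, whereas 38, 24 and 62 of the named miRNAs that matched RefSeq (715 of 782) have a locus on chromosomes 7, 10 and 14. That match is incomplete, so numbers of named miRNAs per chromosome are lower limits and were not compared with those of predicted miRNAs. The number of identifiers said little about reads. Chromosome 19 held on average 44.5% of predicted counts in MDA-MB-231 EV and 63.4% in MDA-MB-231/ACO1 KD EV, nearly all through 19_15192. Chromosome 17 held 39.4% and 1.51%, chromosome 8 held 0.234% and 10.5%, and chromosome 20 held 0.0950% and 10.2%, each set by 1 member.

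The 2 scaffolds, GL000220.1 and KI270733.1, account for 6 identifiers, each listed with 1 count in all. That count lies in MDA-MB-231 EV replicate 1 for KI270733.1_38088, KI270733.1_38120, GL000220.1_38148 and GL000220.1_38178. It lies in MDA-MB-231 EV replicate 2 for GL000220.1_38141 and GL000220.1_38171. GENCODE release 29 on GRCh38 lists 8 genes on these scaffolds, of which 4 are genes of the 5.8S ribosomal RNA and 4 are of the class misc_RNA. The 5.8S ribosomal RNA is processed from the ribosomal RNA precursor and is abundant in every cell. The authors removed reads that matched other RNA classes in Rfam, and how many of the remaining predicted reads stem from ribosomal RNA was not tested. Outside the scaffolds, the predicted miRNAs with 1 count in all were 21_19621, in MDA-MB-231 EV replicate 2, and 21_19628, in replicate 1. Identifiers with their 1 count in the same library may share a read, so these 8 are not known to be separate reads. Whether they are was not tested.

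The spread between replicates was compared with that of named miRNAs of a like count. From 3 counts up, the median was higher for predicted miRNAs in both groups. Below 3 counts it was nearly the same in MDA-MB-231 EV and lower for predicted miRNAs in MDA-MB-231/ACO1 KD EV. For a mean of 10 to 100 counts, the median SD of log2(TPM + 1) over 3 replicates was 0.43 in MDA-MB-231 EV and 0.46 in MDA-MB-231/ACO1 KD EV for 10 predicted miRNAs, 5 of which are copies of one profile, and 0.29 and 0.40 for 121 named ones. For 3 to 10 counts it was 0.75 and 1.38 for 9 predicted miRNAs and 0.58 and 0.77 for 104 named ones. Below 3 counts the medians were 1.41 and 1.09 for 29 predicted and 1.40 and 1.58 for 464 named miRNAs. A miRNA without reads in a group has an SD of 0 there, as do the 11 predicted ones absent from MDA-MB-231/ACO1 KD EV. The medians below 3 counts therefore do not measure how close replicates are. No test was made of these differences. At the top of the range the SDs of the 2 members above 100 counts were small, 0.16 and 0.26 for 19_15192 and 0.18 and 0.23 for 17_13416. They were still above the medians of 0.096 and 0.20 for 93 named miRNAs above 100 counts. At the other end, the residual spread of 20_19352 in the fit was the largest of all 517 miRNAs tested, that of 11_5571 was the 4th largest and that of 5_26715 the 5th.

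Across the 36 predicted miRNAs tested, the levels of pairs of MDA-MB-231 EV replicates correlated with Pearson's r of 0.71 to 0.83, and those of MDA-MB-231/ACO1 KD EV with 0.66 to 0.79. The 481 named miRNAs tested gave 0.93 and 0.86 to 0.92. These correlations are across miRNAs of unequal range and depth within shared libraries, and they describe the tables only. Knockdown replicate 2 was the highest of the 6 libraries for 12 of 30 distinct predicted profiles after TMM scaling (edgeR's trimmed mean of M values), replicate 3 for 7, and the other libraries for 2 to 4 each. Among the named miRNAs replicate 2 was highest for 101 of 481 (21%), and 57 to 88 fell to each of the others.

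**Figure D2:**
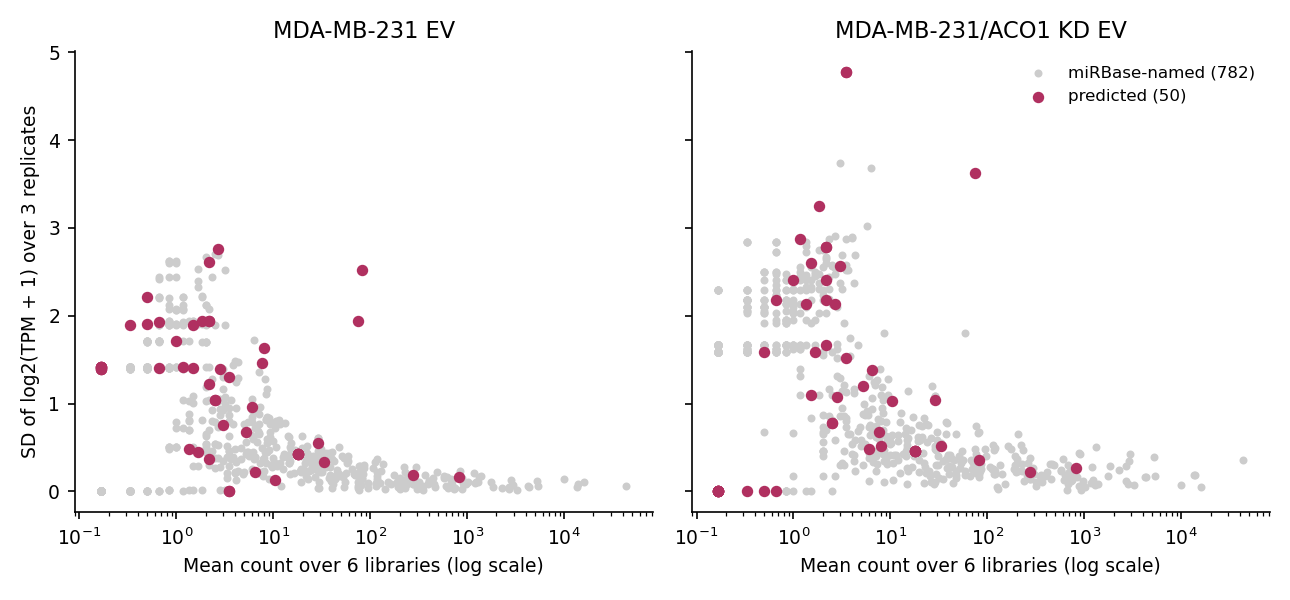
SD of log2(TPM + 1) over 3 replicates (y axis) against the mean count over 6 libraries (x axis, log scale) for MDA-MB-231 EV (left) and MDA-MB-231/ACO1 KD EV (right), with predicted miRNAs in red and miRBase-named ones in grey. Most predicted miRNAs lie at low counts among the named ones, and points far above the grey band at 10 to 100 counts are 8_32440 and 20_19352 in MDA-MB-231 EV and 20_19352 in MDA-MB-231/ACO1 KD EV.

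For the comparison of MDA-MB-231/ACO1 KD EV with MDA-MB-231 EV, 36 of the 50 predicted miRNAs had a count above 0 in at least 3 libraries and were tested together with 481 named ones by edgeR's quasi-likelihood test. At an adjusted p under 0.05, 8 of the 36 passed, 2 lower and 6 higher, beside 8.51% of all miRNAs tested, 6% lower and 2.51% higher. All 8 also had an absolute log2 fold change above 1, beside 3.68% of all tested. With library totals in place of TMM factors the number was 15, 2 lower and 13 higher, beside 13.7% of all tested, 2.51% lower and 11.2% higher. Those 13 include the 5 identifiers of the 1_1033 profile, which have the same counts. The median log2 fold change of the 36 was 1.07 with TMM and 1.41 with library totals, where that of all 517 was -0.03 and 0.32. With identical profiles taken once it was 1.04. Of the 36, 28 had a log2 fold change above 0, beside 48.2% of all tested. The groups did not overlap for 17 of the 36, 13 higher and 4 lower, beside 24.4% of all tested, 11.6% higher and 12.8% lower, and the 13 hold 9 distinct profiles. Of the 49 late-numbered miRBase miRNAs tested, 2 passed, both lower. An exact two-sided permutation test of log2(TPM + 1) gave p = 0.1 for each of the 8 that passed, the smallest that 3 libraries against 3 allow. Groups that do not overlap in TPM always give this p, and 18 of the 36 had it.

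**Figure D3:**
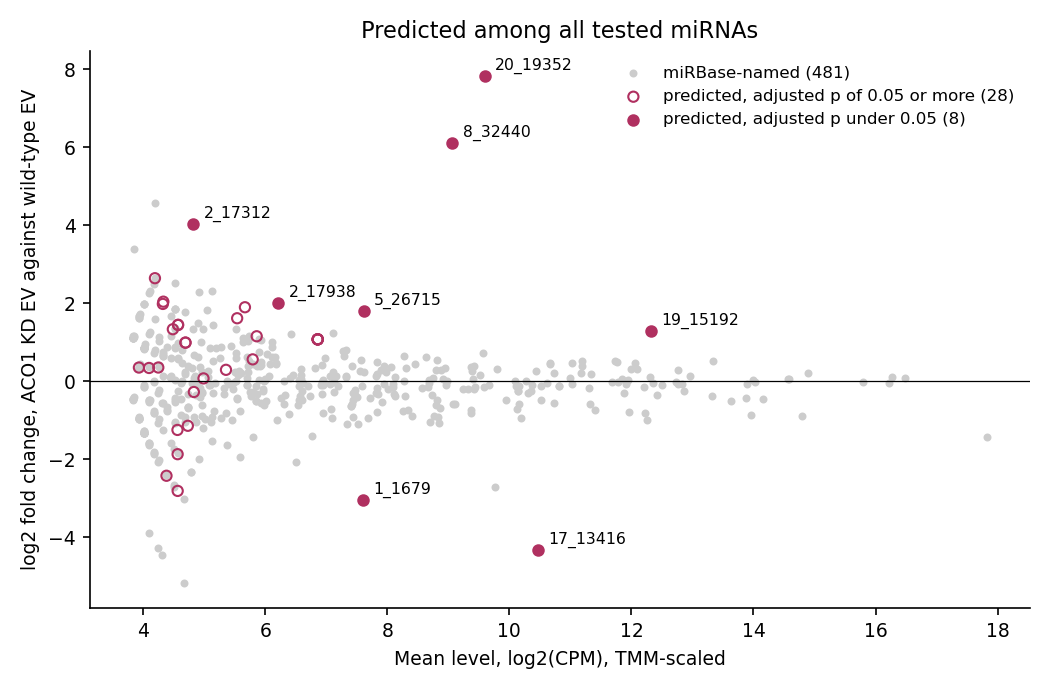
log2 fold change of MDA-MB-231/ACO1 KD EV against MDA-MB-231 EV (y axis) against mean level as log2(CPM) after TMM scaling (x axis) for the 517 miRNAs tested. Filled red points are the 8 predicted miRNAs past an adjusted p of 0.05, open red points the 28 that are not, and grey points the 481 named ones. 6 filled points lie above 0 and 2, 1_1679 and 17_13416, below it.

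19_15192 was the predicted miRNA of highest level in both groups. Its TPM was 2743, 2281 and 2804 in MDA-MB-231 EV replicates 1, 2 and 3 and 6935, 9930 and 7888 in MDA-MB-231/ACO1 KD EV. The groups did not overlap, and the mean rose from 2610 ± 286 TPM (SD, n = 3) to 8251 ± 1530 TPM (SD, n = 3), from rank 45 to rank 21 among all 832 miRNAs. It rose by 1.29 ± 0.15 (standard error) on the log2 scale, with an adjusted p of 1.11e-14. It had 4909 counts in all. Its log2 fold change stayed between 1.19 and 1.66 over 16 other settings. It passed in 15 of them, and the adjusted p was 0.0545 with limma without a mean-variance trend.

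17_13416 showed the opposite pattern. It had 2672, 2151 and 2138 TPM in MDA-MB-231 EV and 131, 177 and 140 TPM in MDA-MB-231/ACO1 KD EV, so every knockdown library was far below every control library. The summed counts per total stood at a ratio of 0.0613 (95% exact counting interval 0.0462 to 0.0798), and its rank moved from 49 to 175. Replicates within each group were close, and its residual spread was among the lowest of the tested miRNAs, 485th of 517. The log2 fold change was -4.34 (adjusted p = 6.2e-68), and it passed in each of the 16 other settings.

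1_1679 was the other predicted miRNA that fell. It had 204, 325 and 280 TPM in MDA-MB-231 EV against 28.4, 58.9 and 44.5 TPM in MDA-MB-231/ACO1 KD EV, where these levels rest on 5, 4 and 7 counts. The groups were separate, at -3.06 ± 0.38 (standard error) on the log2 scale and an adjusted p of 6.75e-14. It passed in all 16 other settings as well.

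8_32440 was close to absent in MDA-MB-231 EV, with 0, 21.7 and 17.8 TPM, and had 1353, 1429 and 909 TPM in MDA-MB-231/ACO1 KD EV. The knockdown replicates were alike, and 8_32440 ranked 71st among all miRNAs there against 356th in MDA-MB-231 EV. The ratio of summed counts per total was 90.1 (95% exact counting interval 47.1 to 198), resting on 9 counts in MDA-MB-231 EV.

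20_19352 had 13.3, 4.34 and 0 TPM in MDA-MB-231 EV and 96.6, 6085 and 63.6 TPM in MDA-MB-231/ACO1 KD EV. Knockdown replicate 2 alone held 97.2% of its TPM summed over libraries, although both other knockdown libraries were also above the control libraries. The ratio of summed counts per total was 187 (95% exact counting interval 72.4 to 688), and without replicate 2 it was 13.8 (4.80 to 54.2), with 4 counts in MDA-MB-231 EV and 27 in the knockdown libraries. By edgeR's quasi-likelihood test the adjusted p came to 2.4e-86 with all libraries, to 0.00138 without replicate 2, and to 0.309 with all libraries under edgeR's robust option, which lets a miRNA that varies more keep its own larger spread. DESeq2 gave no p for it.

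**Figure D4:**
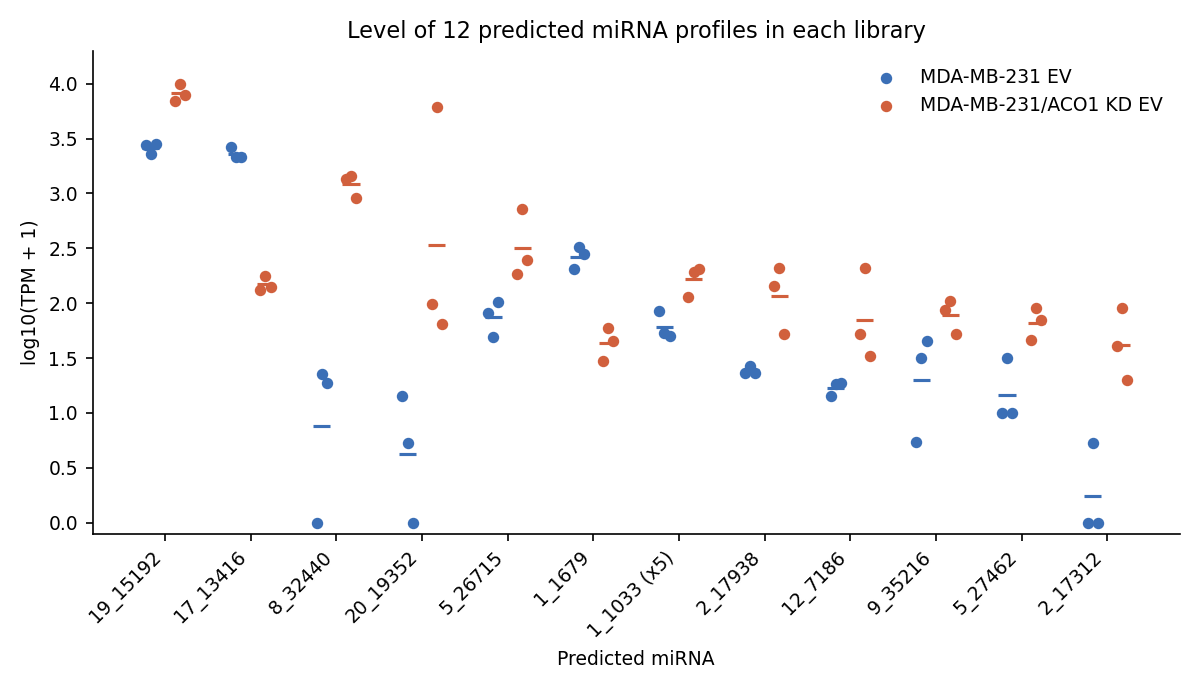
Level as log10(TPM + 1) (y axis) of 12 predicted miRNA profiles (x axis) in each library of MDA-MB-231 EV (blue) and MDA-MB-231/ACO1 KD EV (red), with bars at the mean of 3 libraries on this scale. The profile of 1_1033 stands for 5 identifiers. 17_13416 and 1_1679 are lower in every knockdown library, the other 10 are higher on the TPM scale, and 20_19352 spans 63.6 to 6085 TPM among the knockdown libraries.

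5_26715 had 80.0, 47.7 and 102 TPM in MDA-MB-231 EV and 182, 722 and 248 TPM in MDA-MB-231/ACO1 KD EV. The groups did not overlap, and knockdown replicate 2 stood highest, with 52.3% of the sum over libraries. The increase was 1.81 ± 0.32 (standard error) in log2 units with an adjusted p of 8.34e-07, and without replicate 2 it was 1.16 (adjusted p = 0.033).

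2_17938 had 22.2, 26 and 22.2 TPM in MDA-MB-231 EV and 142, 206 and 50.9 TPM in MDA-MB-231/ACO1 KD EV from 25, 14 and 8 counts. Every knockdown library was higher, with an adjusted p of 0.00299 (log2 fold change 2.0 ± 0.52, standard error). Without knockdown replicate 1 the adjusted p was 0.0623.

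2_17312 was the last to pass, with an adjusted p of 0.0116. It had 0, 1 and 0 counts in MDA-MB-231 EV and 7, 6 and 3 counts in MDA-MB-231/ACO1 KD EV. The ratio of summed counts per total was 27.1, with a 95% exact counting interval of 4.22 to 1138 that leaves its size poorly known, as MDA-MB-231 EV had 1 count. With 1 library left out it passed in 3 of 6 fits, and the adjusted p was 0.0971 without MDA-MB-231 EV replicate 3, the highest of them. It was not past 0.05 without MDA-MB-231 EV replicate 1 or MDA-MB-231/ACO1 KD EV replicate 2 either.

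Just outside the threshold stood 12_7186 and the 5 identifiers of the 1_1033 profile, all at an adjusted p of 0.0504 in the same test. The 1_1033 profile had 84.5, 52.0 and 48.9 TPM in MDA-MB-231 EV and 114, 192 and 203 TPM in MDA-MB-231/ACO1 KD EV. Its groups did not overlap, and the fitted difference was 1.07 ± 0.38 (standard error) in log2 units. When identical profiles were counted once, 30 predicted miRNAs were tested and 10 passed, 2 lower and 8 higher, beside 9.25% of the 508 miRNAs then tested, 6.1% lower and 3.15% higher, with the profile of 1_1033 and 12_7186 among them. For 12_7186 the values were 13.3, 17.3 and 17.8 TPM against 51.2, 206 and 31.8 TPM, and knockdown replicate 2 held 61.1% of the sum. Without that library its adjusted p was 0.559.

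9_35216 and 5_27462 passed in 1 and 2 of the other settings and not in the main test. 9_35216 had 4.45, 30.4 and 44.4 TPM against 85.3, 103 and 50.9 TPM, with groups that overlap after TMM scaling and an adjusted p of 0.262, and 5_27462 had 8.89, 30.4 and 8.89 TPM against 45.5, 88.4 and 69.9 TPM, with an adjusted p of 0.132. The pair 8_33327 and 8_33328 was not tested, because its 21 counts, 309 TPM, all lie in knockdown replicate 2. It passed in both settings that let it in, no filter and a mean TPM of at least 10, on that library alone. A count of 0 in the other libraries allows up to 13.0 to 13.3 TPM in MDA-MB-231 EV and 17.1 and 19.1 TPM in knockdown replicates 1 and 3.

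The remaining 20 tested predicted miRNAs had 4 to 46 counts in all, log2 fold changes from -2.81 to 2.64 and adjusted p from 0.189 to 0.981, with 14 of them above 0. X_37148, the nearest to the threshold among these, had 5, 3 and 4 counts in MDA-MB-231 EV and 0, 0 and 1 in MDA-MB-231/ACO1 KD EV. The 14 that were not tested were the pair 8_33327 and 8_33328 and 12 with 1 to 4 counts in all. A difference in any of these 12 was not detectable at this depth.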

How the data were processed

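Per the study's methods, the authors trimmed adapters, selected inserts by size, discarded reads matching Rfam RNA classes, searched miRBase, and called predicted miRNAs with Mireap or miRDeep2. The submitters' processing notes name hg38. Which tool gave the identifiers is not given in the sources used here. Each library has a column of raw counts and a column of TPM, both deposited by the authors. The deposited TPM equals the count over the library total, scaled to CPM, to within 4.99e-05, so it has no length term. No column was left unused.

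A miRNA detected (count above 0) in 3 or more of the 6 libraries was tested by edgeR 4.0.16 (R 4.3.3), quasi-likelihood, TMM scaling, no covariates, Benjamini-Hochberg adjustment over all 517. Its common dispersion was 0.0433 with an infinite prior degree of freedom, so a miRNA that varies more than others gets too small a p. Standard errors were derived from fold change and F statistic. Where a control group had few reads, a ratio of summed counts with an exact counting interval replaced the fold planned against 3 counts. Shares, spread, prefixes and identical profiles were described without tests. The fits were checked on simulated counts that gave every miRNA the same dispersion. That check does not cover a miRNA that varies more than others.

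Alternatives were DESeq2 1.42.0, limma 3.58.1 on log2(TPM + 1), edgeR's robust option, other scalings and filters, a replicate block and each library left out. Limma without a trend and identical profiles counted once were added after seeing the data. Predicted miRNAs were named when past an adjusted p of 0.05 in the main or an alternative fit with all libraries, among the 5 highest by mean TPM in a group, with over 50% of their summed TPM in 1 library and at least 10 counts in that library, or at 3 or more counts in every library of one group and 0 in the other. 11_5571, X_37148, the sets of identical counts and the predicted miRNAs with 1 count in all were named in addition. The members and lists were chosen with earlier results of these data known.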

Additional observations from a re-analysis of the deposited data

How the results depend on the processing

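The number of predicted miRNAs past an adjusted p of 0.05 was 8 with edgeR and TMM, of 44 among all 517 miRNAs. It was 15 of 71 with library totals, 14 of 51 with TMM factors from the miRBase-named miRNAs alone, 16 of 75 with limma on log2(TPM + 1) and 15 of 52 with a mean TPM of at least 10, which left 402 miRNAs. It was 2 of 7 with limma without a mean-variance trend, where 17_13416 and 1_1679 passed. It was 7 of 40 with DESeq2, which gave no adjusted p for 20_19352 and 2_17312 and where 12_7186 passed. It was 8 of 46 with the robust option, where 12_7186 passed and 20_19352 did not. Without a filter it was 10 of 39, and with identical profiles counted once 10 of 47. The numbers that also had an absolute log2 fold change above 1 were the same throughout. With 1 library left out both numbers went from 7 to 13, the 13 without MDA-MB-231/ACO1 KD EV replicate 1, of 19 to 70 among all. The 5 identifiers of the 1_1033 profile, copies of one another, passed together. They are counted singly in the 15, 14, 16, 15 and 13 given here. The identical pair 8_33327 and 8_33328 counts as 2 in the 15 with a mean TPM of at least 10 and in the 10 without a filter. The 2 that fell were the same in every setting. Apart from these identical profiles, the cause of the changes in number was not tested. Library totals, against TMM, moved the median log2 fold change of all miRNAs from -0.03 to 0.32.

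Of 249 values of single predicted miRNAs in other settings, 201 stayed on their side of the threshold, 37 moved past it, 11 no longer passed and none changed sign. These values count identical profiles singly and are not independent. All 37 belong to 12_7186, 9_35216, 5_27462 and the 1_1033 profile. That profile supplied 6 through 1_1033 and 5 through each of its copies, and 12_7186 supplied 8. Deviations of libraries of equal replicate number correlated weakly between the groups (0.113, 0.117 and 0.000454). Low counts weaken such correlations, so a pairing by replicate number was not established and its absence was not shown. With a replicate block 8 predicted miRNAs passed.

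The mean share of counts on predicted miRNAs, 0.594% in MDA-MB-231 EV and 1.40% in MDA-MB-231/ACO1 KD EV, was 0.101% and 0.349% without the 3 of highest TPM (19_15192, 17_13416 and 20_19352) and 0.848% and 1.62% when hsa-miR-21-5p was taken out of the total. With 1 library left out it ranged from 0.566% to 0.620% and from 1.04% to 1.60%. The share of the 3 largest in predicted counts, 87.6% and 83.6%, was 83.0% and 74.3% for those fixed 3, and 87.1% to 88.2% and 82.9% to 84.0% with 1 library left out. Depth limits the predicted miRNAs under 10 counts most, and for them a lack of difference was not established.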
